A study of Homo sapiens with 6 samples.

Results

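The human mitochondrial ribosome translates the small set of messages that are made inside mitochondria, all of which encode subunits of the respiratory chain and of ATP synthase. It is built from a large and a small subunit (39S and 28S in older usage), each a ribosomal RNA transcribed inside the organelle and a large set of proteins that are encoded in the nucleus, made in the cytosol and imported. The large subunit joins amino acids and passes the new chain through an exit tunnel into the inner membrane, and the small subunit binds the message and reads its codons. Many of the proteins descend from bacterial ribosomal proteins and the others are found in mitochondrial ribosomes alone.

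The nuclear genes for these proteins were described here as the protein-coding genes of GENCODE release 44 whose symbol starts with MRPL or MRPS. This rule gave 78 genes of the 60624 rows of the expression table, 49 with MRPL symbols (large subunit) and 29 with MRPS symbols (small subunit), and it used no measured value. The symbols do not all match the place of the protein: MRPS30 and MRPS18A name proteins of the large subunit, and MRPS36 names a protein that belongs to the oxoglutarate dehydrogenase complex and not to the ribosome. The symbol is followed below unless structure is mentioned. All 78 genes averaged at least 1 TPM and entered the test, and none was at 0 in any library.

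RNA-seq had been made from A549 cells, an established human lung adenocarcinoma line, to compare knockdown of CEP20, a protein of centrioles and centriolar satellites, with a control. Of the 6 libraries, 3 came from cells given small interfering RNA against CEP20 (siCEP20) and 3 from cells given a control siRNA (siCTR), in both cases for 3 days and in this 1 cell line. A label common to all samples also names plasmid transfection, and the labels give neither the siRNA sequence used nor whether replicates were separate cultures, so p-values measure only the spread between these samples. The files give TPM, a measure of transcript abundance per transcript length that adds up to the same total in every library, so the sequencing depth is unknown.

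CEP20 itself was at 29.2, 30.5 and 35.1 TPM in siCTR and 16.2, 15.3 and 17.3 TPM in siCEP20 libraries (log2 fold change -0.92, limma adjusted p = 0.000205). The A549 markers KRT8, KRT18, KRT19, CDH1, EPCAM, AKR1B10, AKR1C1 and ALDH1A1 summed to 6432 to 6593 TPM in siCTR and 7633 to 7979 TPM in siCEP20 libraries, with EPCAM low at 0.834 to 3.85 TPM. The 8 markers of other cell types summed to 21.6 to 29.99 TPM and 49.4 to 64.9 TPM, nearly all of it CD68 and COL1A1. CD3E was at 0 in every library, and PTPRC, VWF, PECAM1 and COL3A1 stayed at or under 0.195 TPM. The part of these markers in the results below was not tested, and a smaller number of cells of a kind cannot be told apart from less RNA per cell in bulk RNA.

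Fold changes are siCEP20 against siCTR on the log2(TPM + 1) scale, which understates the change of genes with low TPM. A gene is said to have passed, risen or fallen at a limma p-value under 0.05 after Benjamini-Hochberg adjustment over all 14778 genes that averaged at least 1 TPM. Of those genes, 30.2% higher and 13.2% lower, and their median log2 fold change was 0.13. That median depends on the scale between libraries: with median-of-ratios scaling it was 0.0001, so medians are also given relative to it. With 3 samples against 3, a two-sided exact permutation test of a single gene cannot go below p = 0.1, and that value was reached by each gene whose groups did not overlap.

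The balance of the mitochondrial ribosomal protein genes ran the other way from that of all genes. Among the 78 genes, 14 rose and 31 fell, against the 30.2% and 13.2% of all tested genes, and 33 did not pass (43.3% of all tested genes passed in either direction). Their median log2 fold change was -0.10 (-0.24 when that of all tested genes is subtracted), and the single genes ranged from -1.13 (MRPL9) to 0.64 (MRPS2). With the libraries scaled by the median of ratios, 6 rose and 38 fell, while 20.1% and 21.6% of all tested genes did. The 3 siCEP20 values lay all above the siCTR values for 19 genes and all below for 35 genes, where 38.4% and 17.0% of all tested genes did so (55.4% together).

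Adding the study's fold thresholds (FC > 1.5 or < 0.67) left 11 of the 78 genes. MRPS2 was the only gene called higher, where 11.2% of all tested genes were. With median-of-ratios scaling limma called none higher, also at an unadjusted p under 0.05, since its fold change fell under 1.5. Called lower were 10 genes, where 4.61% of all tested genes were: MRPL9, MRPL52, MRPL54, MRPL41, MRPL27, MRPL34, MRPS12, MRPS28, MRPL33 and MRPL55.

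**Figure D1:**
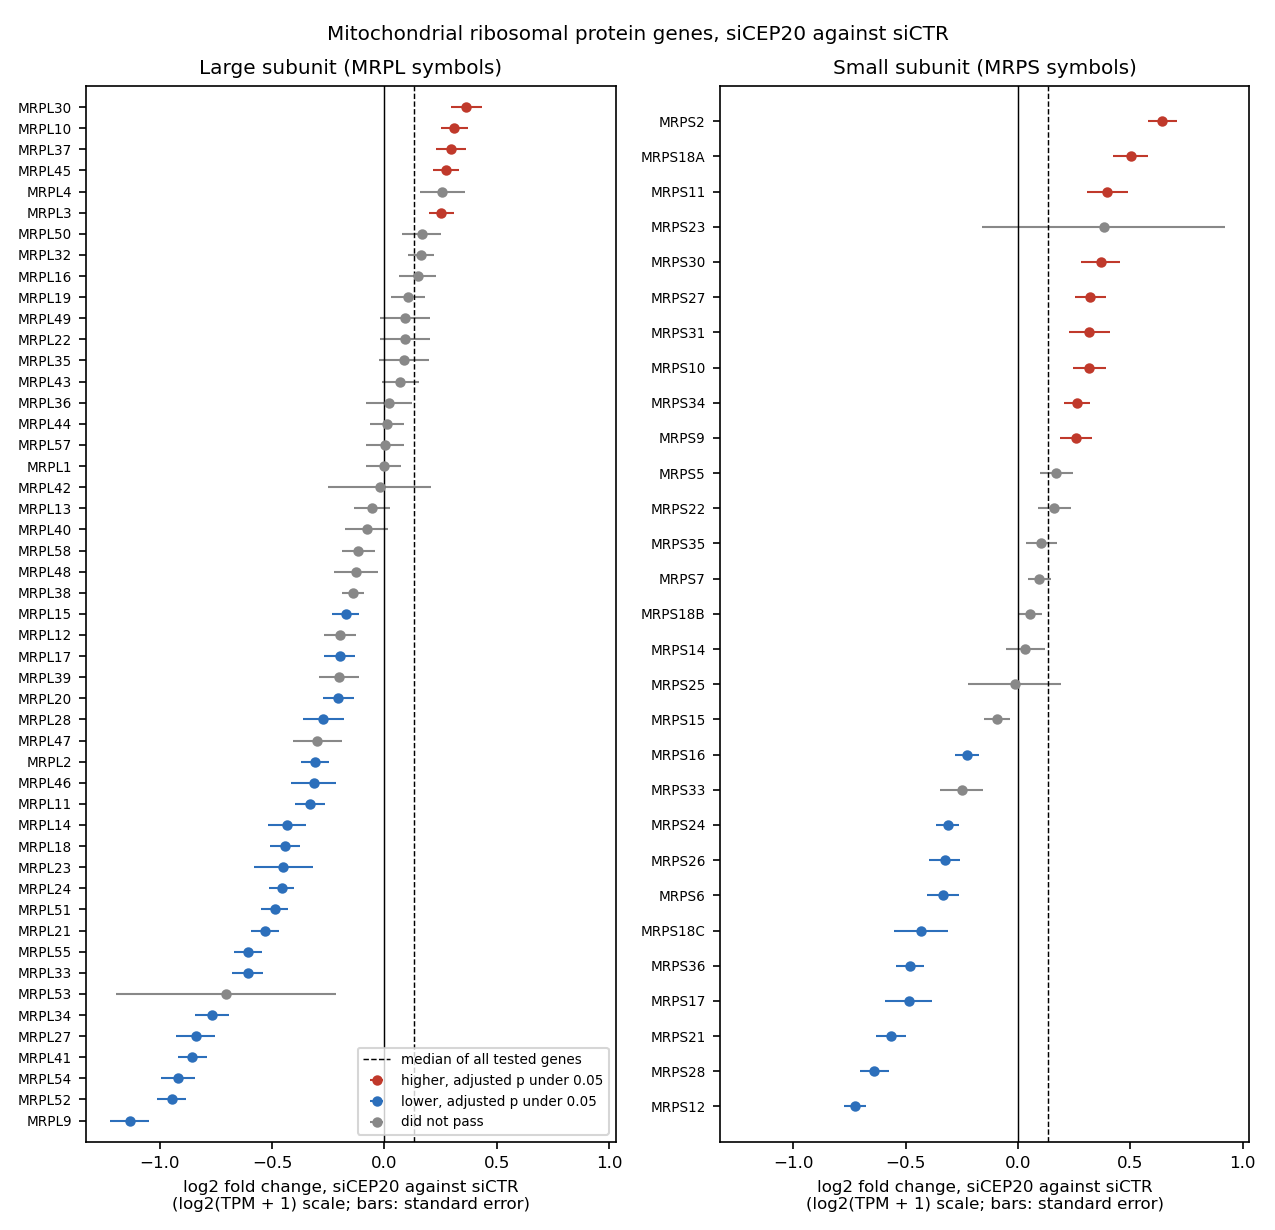
Log2 fold change of each of the 78 genes, siCEP20 against siCTR, with its standard error (bars), large subunit at the left and small subunit at the right. Points are red for the 14 genes that rose, blue for the 31 that fell and grey for the 33 that did not pass, and the dashed line marks the median of all tested genes at 0.13.

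The balance was counted for each subunit, with no test of the difference between them. Of the 49 MRPL genes, 5 rose and 21 fell (10.2% and 42.9%), and the median log2 fold change was -0.17 (-0.30 after the same subtraction). Of the 29 MRPS genes, 9 rose and 10 fell (31.0% and 34.5%), and the median was 0.05 (-0.08 after subtraction). Among all tested genes 30.2% rose and 13.2% fell, so the MRPS share that rose was close to that of all genes. The median of the small subunit turned negative under median-of-ratios scaling (-0.09), quantile normalization (-0.02) and the length and GC correction (-0.0004), and that of the large subunit was negative in every alternative run. The large median minus the small one was -0.23 on the log2 scale, and it ran from -0.31 (without siCTR replicate 2) to -0.18 (length and GC correction) over the 15 alternative settings that were fitted.

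Assigning the genes by structure changed little. With MRPS30 and MRPS18A moved to the large subunit and MRPS36 left out, 7 of 51 large-subunit genes rose and 21 fell (13.7% and 41.2%). Of the 26 small-subunit genes 7 rose and 9 fell (26.9% and 34.6%), against 30.2% and 13.2% of all tested genes. The medians were then -0.14 and 0.04. No test was made of these medians, since the genes of a subunit are not replicates of a condition.

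Summed levels were taken in each library. The 49 MRPL genes summed to 4654, 4565 and 4683 TPM in siCTR libraries (4634 ± 61.5, SD, n = 3). In siCEP20 libraries they summed to 3754, 4004 and 3856 TPM (3871 ± 125.7, SD, n = 3), all below the siCTR sums. For the 29 MRPS genes the sums overlapped, at 2457, 2475 and 2519 TPM in siCTR (2484 ± 31.9, SD, n = 3) and 2354, 2556 and 2448 TPM in siCEP20 libraries (2453 ± 101.1, SD, n = 3). The highest of these sums, in siCEP20 replicate 2, holds MRPS23 at 133.2 TPM, a gene at 23.3 to 36.9 TPM in the other libraries.

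The ratio of the large to the small sum, which does not depend on a scale factor of the library, was 1.894, 1.844 and 1.859 in siCTR (1.87 ± 0.0257, SD, n = 3) and 1.595, 1.567 and 1.575 in siCEP20 libraries (1.58 ± 0.0144, SD, n = 3). The groups did not overlap. By structure the mean ratio went from 2.02 to 1.75, and without the 3 most abundant genes of each subunit from 1.98 to 1.62. All 78 genes together took 0.712% ± 0.00812 of all TPM in siCTR and 0.632% ± 0.0226 in siCEP20 libraries (SD, n = 3 each).

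**Figure D2:**
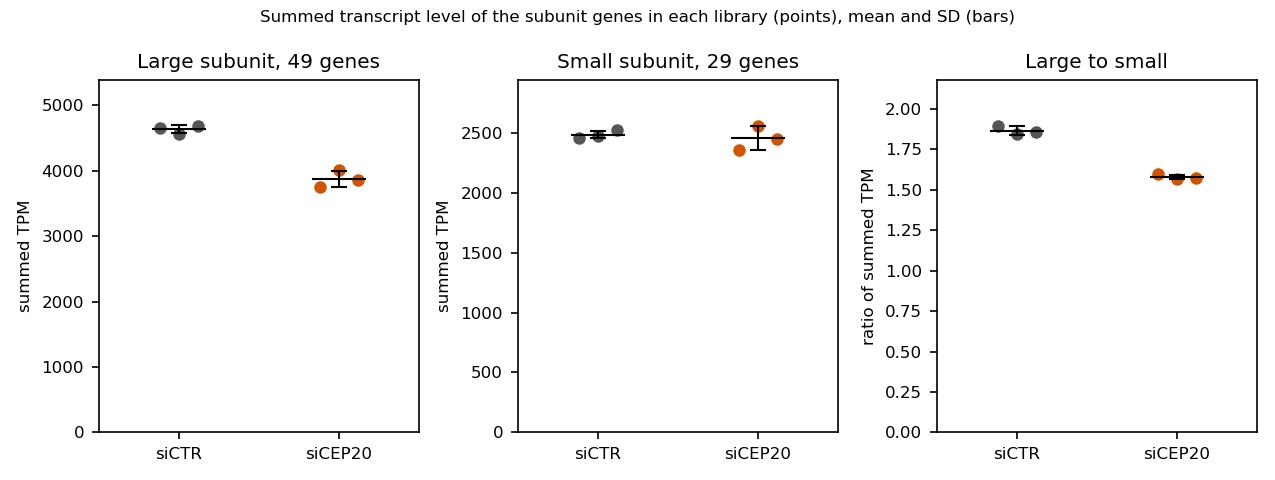
Summed TPM of the 49 MRPL genes and of the 29 MRPS genes and the ratio of the sums, with each library as a point and the mean and SD of each group as bars. The siCEP20 libraries lie below the siCTR libraries for the large subunit (3754 to 4004 against 4565 to 4683 TPM) and for the ratio, and overlap with them for the small subunit.

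The deepest falls were in large-subunit genes. MRPL9, whose bacterial homologue lies at the base of the L1 stalk, was at 91.5, 85.4 and 88.1 TPM in siCTR and 37.8, 36.7 and 45.2 TPM in siCEP20 libraries. Less than 50% of its level was left (45.1%; log2 fold change -1.13, standard error 0.0862, limma adjusted p = 7.16e-05). The gene (ENSG00000143436, chr1:151759647-151763496, minus strand, hg38) overlaps OAZ3 on the other strand and a long non-coding RNA on its own, both under 4 TPM on average.

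MRPL52, a protein without a bacterial homologue, fell from 113.2, 124.7 and 122.9 TPM to 61.4, 64.3 and 59.9 TPM (log2 fold change -0.95, standard error 0.0628, limma adjusted p = 4.91e-05). MRPL54, a second mitochondria-specific protein, set near the stalk that binds translation factors, fell from 80.9, 70.1 and 74.4 TPM to 41.8, 38.0 and 37.9 TPM (log2 fold change -0.92, standard error 0.0757, limma adjusted p = 9.19e-05). MRPL41 fell from 215.4, 201.0 and 184.7 TPM to 111.9, 111.8 and 106.9 TPM (log2 fold change -0.85, limma adjusted p = 7.47e-05). In these genes between 51.4% and 55.0% of the control level was left, and the siCEP20 libraries lay close to each other and far below every siCTR library.

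MRPL34, the mitochondrial form of a bacterial protein (bL34), went from 80.3, 79.4 and 89.1 TPM to 46.8, 52.1 and 46.0 TPM (log2 fold change -0.77, limma adjusted p = 0.000194). MRPS12, the homologue of bacterial S12 at the decoding centre, had the largest fall in the small subunit, from 271.3, 266.5 and 262.5 TPM to 157.9, 167.2 and 157.8 TPM (log2 fold change -0.73, standard error 0.0503, limma adjusted p = 5.22e-05). Both kept their groups well apart, with the highest siCEP20 library far under the lowest siCTR library.

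MRPS2, the homologue of bacterial S2, was the gene that rose most. Its level was 127.3, 129.4 and 124.8 TPM in siCTR and 182.4, 207.6 and 207.7 TPM in siCEP20 libraries, a log2 fold change of 0.64 (standard error 0.0647, limma adjusted p = 0.000215). It lies on chr9:135499984-135504673 (ENSG00000122140, plus strand) and overlaps PIERCE1 on the other strand, which rose from 14.1 to 40.0 TPM on average (log2 fold change 1.45, limma adjusted p = 9.32e-05). The methods describe a strand-marking library, but the sources used here do not say that the quantification used the strand, so reads of the pair may not be told apart.

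MRPL30, the homologue of bacterial L30, rose from 27.5, 30.2 and 27.1 TPM to 36.3, 36.5 and 37.2 TPM (log2 fold change 0.36, limma adjusted p = 0.00383), though not after the length and GC correction. It shares its strand with 2 overlapping gene models, so that its level is less certain. MRPS27, a protein with pentatricopeptide repeats, rose from 94.1, 101.2 and 108.9 TPM to 128.2, 130.6 and 121.8 TPM (log2 fold change 0.32, limma adjusted p = 0.00622). Their siCEP20 means were 129.6% and 125.1% of the siCTR means, with the lowest siCEP20 library above the highest siCTR library in each.

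The other genes that rose were MRPS11, MRPL37, MRPS34 and MRPL3, with the genes of the functional regions described next. MRPS11, the homologue of bacterial S11, went from 72.5, 77.7 and 82.2 TPM to 99.6, 92.3 and 116.4 TPM (log2 fold change 0.40, limma adjusted p = 0.00956), and it overlaps a gene model on the other strand (ENSG00000173867) that rose as well, with a log2 fold change of 0.85. MRPL37, MRPS34 and MRPL3 had log2 fold changes of 0.30, 0.26 and 0.25. None of these 4 passed by limma with median-of-ratios scaling (1 of the 4 did at an unadjusted p under 0.05). The call of MRPS11 was also lost with the length and GC correction. Of the 14 genes that rose, the 5 that passed in every alternative setting fitted were MRPS2, MRPS18A, MRPS30, MRPS27 and MRPL10.

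Among the other genes that fell, MRPS28 went from 89.4, 95.0 and 97.0 TPM to 57.2, 63.3 and 59.1 TPM (log2 fold change -0.64, limma adjusted p = 0.000217). MRPL55, a homologue of bacterial L31, went from 68.7, 75.0 and 74.9 TPM to 48.9, 46.7 and 46.8 TPM (log2 fold change -0.61, limma adjusted p = 0.000243). MRPS36, which is named as a ribosomal protein but serves the oxoglutarate dehydrogenase complex, fell too, from 38.2, 38.8 and 38.5 TPM to 26.6, 27.8 and 27.6 TPM (log2 fold change -0.48, limma adjusted p = 0.000643). MRPS21, MRPL21 and MRPL51 followed with log2 fold changes of -0.56, -0.53 and -0.49. At the other end, MRPL15 (-0.17, limma adjusted p = 0.0487) and MRPL17 (-0.20, limma adjusted p = 0.0473) passed by a small margin. The call of MRPL15 was lost whichever 1 of the 6 libraries was left out, and that of MRPL17 without any 1 of them except siCEP20 replicate 3. MRPL20 and MRPL28 likewise lost their calls without siCTR replicate 1, siCTR replicate 3 or siCEP20 replicate 1, MRPL20 also without siCEP20 replicate 2 and MRPL28 also without siCEP20 replicate 3. With the length and GC correction MRPL20 lost its call too.

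**Figure D3:**
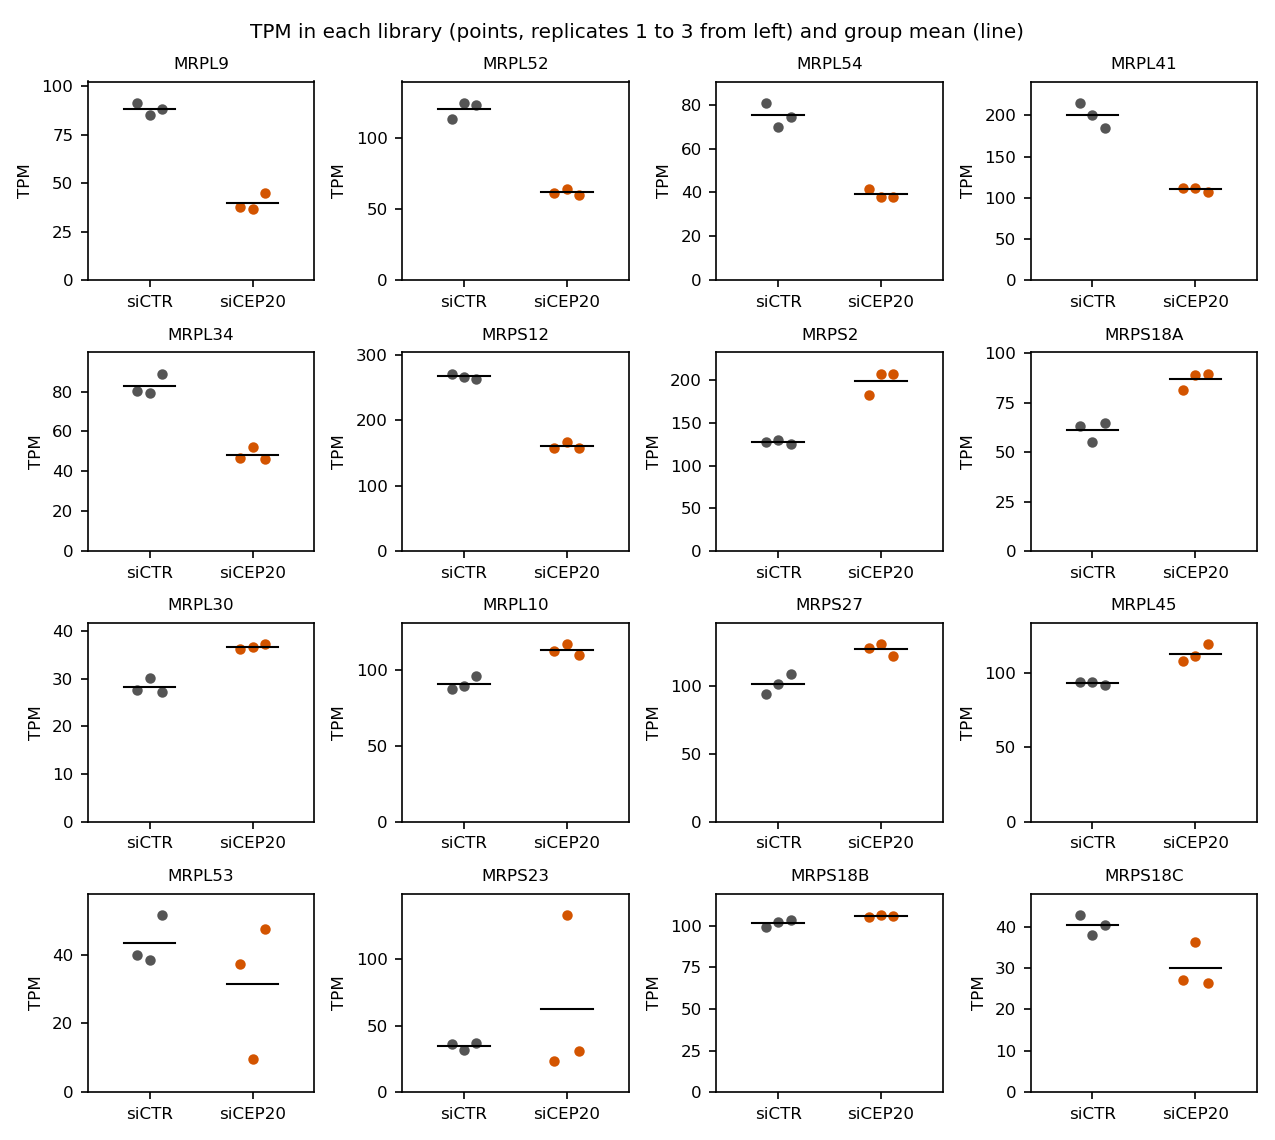
TPM in each library for 16 of the genes, with siCTR in grey, siCEP20 in orange and the group mean as a line; each panel has its own axis from 0. Groups lie apart in 14 panels, with MRPL9 and MRPS2 farthest among those that fell and rose, and overlap for MRPL53 and MRPS23, in each of which siCEP20 replicate 2 stands far from the other libraries.

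In 3 regions of the large subunit, genes of the same region moved in both directions. The stalk of the large subunit recruits elongation factors: MRPL10 and MRPL11 hold its base and MRPL12 forms its mobile part, with MRPL53 and MRPL54 beside it. Here 1 of the 5 genes rose and 2 fell, where 30.2% and 13.2% of all tested genes did. MRPL10 rose from 87.6, 89.2 and 96.1 TPM to 112.3, 117.0 and 110.0 TPM (log2 fold change 0.31, limma adjusted p = 0.00408), whereas MRPL11 fell from 88.8, 95.7 and 102.5 TPM to 74.6, 77.5 and 75.0 TPM (log2 fold change -0.33, limma adjusted p = 0.00507). MRPL12, which is the most abundant of all 78 genes at a mean of 336 TPM over the 6 libraries, had a log2 fold change of -0.20 and did not pass (limma adjusted p = 0.0536).

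The tunnel exit is where the new chain leaves for the inner membrane. Of its 7 listed genes, MRPL24 and MRPL23 fell and MRPL45, which docks the ribosome to the membrane, rose. Thus 28.6% fell and 14.3% rose, against 13.2% and 30.2% of all tested genes. MRPL24 went from 251.7, 260.3 and 256.3 TPM to 178.7, 196.6 and 184.0 TPM (log2 fold change -0.46, limma adjusted p = 0.000442), and MRPL45 from 94.0, 94.0 and 91.7 TPM to 108.2, 111.3 and 119.4 TPM (log2 fold change 0.27, limma adjusted p = 0.00652). MRPL22, MRPL39, MRPL44 and MRPL47 had log2 fold changes between -0.30 and 0.09 and did not pass. The call of MRPL45 was lost with median-of-ratios scaling, and that of MRPL23 (limma adjusted p = 0.0239) when any 1 of siCTR replicate 1, 2 or 3 or siCEP20 replicate 1 was left out. MRPL23 also missed the threshold with the length and GC correction.

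In the central protuberance, the crown of the large subunit, 3 of the 8 listed genes fell and 1 rose. That was 37.5% and 12.5%, against 13.2% and 30.2% of all tested genes. MRPL27, whose bacterial homologue reaches towards the site of peptide bond formation, fell most, from 147.1, 130.5 and 122.8 TPM to 69.6, 81.1 and 71.7 TPM (log2 fold change -0.84, limma adjusted p = 0.000236). MRPL18 (log2 fold change -0.44) and MRPL46 (-0.32) fell as well. MRPL58, a peptidyl-tRNA hydrolase built into the ribosome, had a log2 fold change of -0.12 and did not pass, as was the case for MRPL38, MRPL40 and MRPL48. The listed gene that rose was MRPS30, from 34.0, 40.4 and 40.9 TPM to 51.6, 50.2 and 47.4 TPM (log2 fold change 0.37, limma adjusted p = 0.00963). For MRPL46 the call (limma adjusted p = 0.0343) was lost without siCTR replicate 1, siCTR replicate 3, siCEP20 replicate 1 or siCEP20 replicate 3. It was also lost with the length and GC correction.

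The head of the small subunit, which moves with the message and the transfer RNAs, held 3 genes that rose and none that fell among 7 by limma. That was 42.9% and 0.0%, against 30.2% and 13.2% of all tested genes. The median log2 fold change of the 7 was -0.03 relative to that of all tested genes. At an unadjusted p under 0.05, MRPS33 alone of the 7 was lower (log2 fold change -0.25, limma adjusted p = 0.0651). The 3 genes were MRPS10 (log2 fold change 0.32), MRPS31 (0.32) and MRPS9 (0.26), with limma adjusted p-values of 0.00972, 0.0220 and 0.0192. None of the 3 passed by limma with median-of-ratios scaling, and none did there at an unadjusted p under 0.05. MRPS10 also lost its call with the length and GC correction, and MRPS31 and MRPS9 lost theirs with quantile normalization. MRPS31 also missed the threshold without siCTR replicate 1 or 2 or siCEP20 replicate 1 or 2, and MRPS9 without siCTR replicate 2 or siCEP20 replicate 2. MRPS7, MRPS14 and MRPS35 had log2 fold changes of 0.09, 0.03 and 0.10 and did not pass.

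Human cells have 3 genes related to the bacterial protein S18, and each moved differently. MRPS18A, whose protein sits in the large subunit, rose from 63.5, 55.2 and 64.8 TPM to 81.8, 89.0 and 89.9 TPM (log2 fold change 0.50, standard error 0.0783, limma adjusted p = 0.00153). MRPS18B was at 99.3, 102.2 and 103.6 TPM and then 105.0, 106.3 and 105.7 TPM, a difference that did not pass (log2 fold change 0.05, limma adjusted p = 0.422). MRPS18C, the copy at the usual S18 site, fell from 42.8, 38.0 and 40.4 TPM to 27.1, 36.3 and 26.4 TPM (log2 fold change -0.43, standard error 0.121, limma adjusted p = 0.0206). Its call was lost without siCTR replicate 1, siCEP20 replicate 1 or siCEP20 replicate 3.

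The levels themselves spanned a wide range, which is read per transcript length on the TPM scale. After MRPL12, the highest means over the 6 libraries were those of MRPL33 (299 TPM) and MRPL24 (221 TPM), and the lowest were those of MRPL50 (10.3 TPM), MRPS31 (17.4 TPM) and MRPS17 (18.03 TPM). MRPL33 fell from 371.7, 360.1 and 351.4 TPM to 231.8, 259.3 and 219.8 TPM (log2 fold change -0.61, limma adjusted p = 0.000329). MRPS17 fell from 21.0, 23.1 and 19.5 TPM to 13.8, 16.8 and 14.0 TPM (log2 fold change -0.49, limma adjusted p = 0.00628). MRPL50 did not pass (log2 fold change 0.17, limma adjusted p = 0.151), so falls were found both at high and at low levels, and across the 78 genes the level and the log2 fold change had a Spearman rho of -0.11, as a description across genes.

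A few genes had 1 library far from the others. MRPS23 was at 36.7, 31.8 and 36.9 TPM in siCTR and 23.3, 133.2 and 30.8 TPM in siCEP20 libraries, a log2 fold change of 0.38 (limma adjusted p = 0.599) that was -0.38 without siCEP20 replicate 2 (limma adjusted p = 0.0653). MRPL53 was at 39.9, 38.5 and 51.5 TPM and then 37.2, 9.57 and 47.5 TPM, again with replicate 2 apart (log2 fold change -0.70, limma adjusted p = 0.279, and -0.03 without it, limma adjusted p = 0.904). MRPL53 overlaps CCDC142 on the same strand, which fell from 46.8 to 19.2 TPM on average (log2 fold change -1.27, limma adjusted p = 0.000365). These were the largest positive and negative differences among the genes that did not pass.

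Short transcripts were common among the genes that fell. For the length of each gene's canonical transcript in the annotation, 26 of the 78 genes were under 1000 bases, and of these 1 rose and 18 fell, with a median log2 fold change of -0.45. Of the 22 genes from 1000 to under 1500 bases 5 rose and 6 fell (median -0.03), of the 17 from 1500 to under 2500 bases 5 rose and 6 fell (median 0.01), and of the 13 from 2500 bases on 3 rose and 1 fell (median 0.11). Length and log2 fold change had a Spearman rho of 0.57 across the 78 genes, 0.63 in the large and 0.42 in the small subunit, given as a description, since genes share libraries and are not independent.

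All tested protein-coding genes showed the same order with length. Their median log2 fold change was -0.25 under 1000 bases (756 genes, 12.4% rose and 45.9% fell). In the next classes it was -0.04 (19.8% and 28.7%), 0.07 (27.7% and 17.1%) and, from 2500 bases on (7878 genes), 0.21 (38.7% and 7.26%). In the same 4 classes 3.85%, 22.7%, 29.4% and 23.1% of the ribosomal protein genes rose. In these classes 69.2%, 27.3%, 35.3% and 7.69% of them fell. Over the 12269 protein-coding genes Spearman rho was 0.28. The shortest class held 20 of the 49 large-subunit and 6 of the 29 small-subunit genes. Within the shortest class none of 20 large-subunit genes rose by limma (1, MRPL32, at an unadjusted p under 0.05) and 14 fell, and 1 of 6 small-subunit genes rose and 4 fell. In the class from 1000 to under 1500 bases the medians were -0.17 for 12 large-subunit genes and 0.13 for 10 small-subunit genes.

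A loess correction for transcript length and GC content, fitted to each library, left 13 of the 78 genes higher and 31 lower. Of all genes tested with it, 19.9% were higher and 21.3% lower, where 30.2% and 13.2% were without it. The median of the 78 genes relative to that of all tested genes went from -0.24 to -0.15. The median of the large subunit was then -0.18 and that of the small subunit -0.0004, and the Spearman rho with length was 0.38 across the 78 genes and 0.07 across the protein-coding genes. How far length carries the difference between the subunits was not tested.

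**Figure D4:**
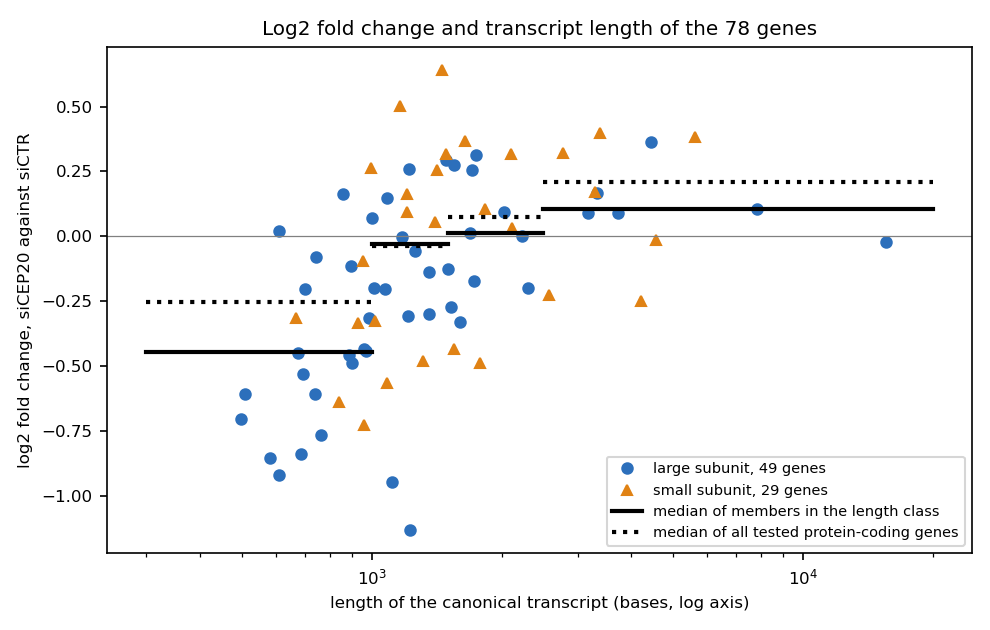
Log2 fold change of the 78 genes against the length of the canonical transcript in bases (log axis), with circles for MRPL and triangles for MRPS genes, solid lines for the median of the genes in each length class and dotted lines for that of all tested protein-coding genes. Of the 26 genes under 1000 bases, 18 fell and their median was -0.45, where the protein-coding genes of that length had -0.25.

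The genes were also split by origin. Of the 48 genes with a bacterial homologue, 8 rose and 24 fell (median log2 fold change -0.20). Of the 29 mitochondria-specific genes, 6 rose and 6 fell (20.7% each, median -0.01). Both counts stand against 30.2% higher and 13.2% lower among all tested genes. In the subunits assigned by structure, 16 of 31 against 5 of 20 genes fell in the large, and 8 of 17 against 1 of 9 in the small subunit. The share of all tested genes that fell was 13.2%. The median transcript length was 1217 bases with a homologue and 1483 bases without. Both medians lie in the class from 1000 to under 1500 bases, where 19.8% of tested protein-coding genes rose and 28.7% fell. The difference between the kinds was not tested.

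Neighbouring genes could share reads with part of the family. An expressed gene overlapped 36 of the 78 genes on either strand. Of these, 7 rose and 16 fell (19.4% and 44.4%, against 30.2% and 13.2% of all tested genes). Of the 42 genes without such an overlap, 7 rose and 15 fell (16.7% and 35.7%). By limma with the fold thresholds, 5 of these 42 were called lower and none higher (none also at an unadjusted p under 0.05). That was 11.9% and 0.0%, where 4.61% and 11.2% of all tested genes were called. MRPS24 (log2 fold change -0.31, limma adjusted p = 0.00194) lies within the readthrough gene URGCP-MRPS24, which is listed at 0 in each siCTR library and at a mean of 9.28 TPM in siCEP20 libraries. The difference of this readthrough gene did not pass (log2 fold change 2.50, limma adjusted p = 0.0591). Most pseudogenes of the family were at 0: of 79 pseudogene rows, 62 were at 0 in every library and 2, MRPS31P4 and MRPS31P5, had a mean of at least 1 TPM. MRPS31P4 was at 3.9, 2.7 and 4.8 TPM in siCTR and 7.4, 6.1 and 8.1 TPM in siCEP20 libraries. MRPS31P5 was at 5.5, 4.0 and 3.8 TPM and then 5.6, 5.3 and 5.2 TPM. MRPS31 itself averaged 15.4 and 19.4 TPM, and reads shared with these pseudogenes cannot be told from TPM.

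Promoters of genes for mitochondrial proteins are known for binding sites of NRF1, of ETS factors such as GABPA, and of YY1. RefSeq promoter windows (GRCh38.p14, 250 bases before to 50 bases after the start) were matched by symbol for 69 of the 78 genes and searched on both strands. The ETS letters CCGGAAG were in 30 of the 69 windows (43.5%), against 10.9% of all 27195 windows and 20.5% of those of tested protein-coding genes. The YY1 letters AAGATGGC were in 21 windows (30.4%, against 3.14% and 5.91%), and the NRF1 letters (GCGCA, any base, GCGC) in 9 (13.0%, against 6.42% and 12.6%). At least 1 of these 3 was in 48 windows (69.6%), where 18.4% of all and 34.3% of tested protein-coding windows had one. A GC box (GGGCGG) was in 41 windows (59.4%, against 46.0% and 74.7%) and TATAAA in 3 (4.35%, against 11.9% and 4.84%), and 2 of all 172 matches overlapped a match of another motif.

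The motifs were also counted by how the genes moved. ETS letters were in 13 of the 25 windows of genes that fell, 6 of the 13 of genes that rose and 11 of the 31 others, and YY1 letters in 6, 5 and 10 of them. NRF1 letters were in 3 of 25, 3 of 13 and 3 of 31 windows, GC boxes in 14, 8 and 19, and TATAAA in 2, 0 and 1. Since AAGATGGC holds an ATG, its place was compared with the annotation: in 13 of the 21 genes the ATG of these letters was the annotated start codon. The stretches of 30 bases below are examples from genes that fell (MRPL52, MRPS12, MRPL54) and rose (MRPS18A, MRPS27, MRPL45), read 5′ to 3′ on the gene's strand, with the matched letters in capitals (CTTCCGG is the ETS motif read from the other strand).
MRPL52, YY1, chr14:22829778-22829807, plus strand: tacgatgacccAAGATGGCggagccgtgat
MRPS12, ETS, chr19:38930928-38930957, plus strand: acggatagcgcCCGGAAGaggctagaagct
MRPL54, ETS, chr19:3762650-3762679, plus strand: gccactgacgtCTTCCGGaaacgtgcactt
MRPS18A, ETS, chr6:43687804-43687833, minus strand: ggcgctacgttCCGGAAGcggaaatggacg
MRPS18A, YY1, chr6:43687764-43687793, minus strand: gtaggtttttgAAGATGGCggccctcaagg
MRPS27, YY1, chr5:72320206-72320235, minus strand: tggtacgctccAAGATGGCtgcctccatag
MRPL45, YY1, chr17:38297170-38297199, plus strand: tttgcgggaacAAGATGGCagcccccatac
The ETS stretches of MRPS12 and MRPS18A lie at the start of genes that moved in opposite directions. Of the factors named above, NRF1 (log2 fold change -0.01), YY1 (-0.06), GABPA (0.29) and GABPB1, the partner of GABPA (-0.24), did not pass. The siCEP20 values of GABPA all lay above its siCTR values (means of 8.27 and 6.61 TPM), and those of the others overlapped. Among 9 tested regulators of nuclear genes for mitochondrial proteins, MYC (log2 fold change 0.94, limma adjusted p = 0.000667) and PPRC1 (0.59, limma adjusted p = 0.0038) rose, and ESRRA fell (-0.61, limma adjusted p = 0.00171). That was 22.2% higher and 11.1% lower, against 30.2% and 13.2% of all tested genes.

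Some proteins of the ribosome have other symbols. Of 5 such genes, AURKAIP1 fell from 156.6, 144.0 and 142.3 TPM to 104.8, 101.9 and 93.7 TPM (log2 fold change -0.56, limma adjusted p = 0.000454), and CHCHD1 fell from 64.3, 63.1 and 60.4 TPM to 40.8, 44.2 and 43.7 TPM (-0.54, limma adjusted p = 0.000445). Both encode proteins of the small subunit, and these 2 were 40.0% of the list, where 13.2% of all tested genes fell. DAP3, a GTP-binding protein of the small subunit, PTCD3, which sits where the message enters, and GADD45GIP1 of the large subunit had log2 fold changes of 0.04, 0.10 and -0.002 and did not pass.

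The lists of the wider machinery of mitochondrial translation had medians from -0.14 to -0.01 relative to that of all tested genes. On the same scale the MRPL genes were at -0.30 and the MRPS genes at -0.08. Of 22 translation factors, 9 rose and 2 fell (40.9% and 9.09%, against 30.2% and 13.2% of all tested genes), with a median log2 fold change of 0.12. GATB, needed to make glutaminyl-tRNA in mitochondria, rose from 12.4, 13.3 and 12.4 TPM to 23.1, 21.4 and 19.8 TPM (log2 fold change 0.71, limma adjusted p = 0.000472), and OXA1L, which inserts new chains into the inner membrane, rose by 0.56 on the log2 scale (limma adjusted p = 0.000521). SLIRP, which stabilises mitochondrial messages, and PDF, the deformylase, fell (log2 fold changes -0.47 and -0.46). The elongation factor TUFM did not pass (0.09, limma adjusted p = 0.185).

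Of 31 assembly factors of the mitochondrial ribosome, 5 rose and 5 fell (16.1% each, against the same 30.2% and 13.2%), with a median log2 fold change of 0.04. NOA1 (0.43) and METTL17 (0.27), which act on the small subunit, rose, while GTPBP6 (-0.62), which acts on the large subunit, and NDUFAB1 (-0.41), the mitochondrial acyl carrier protein, fell. METTL17 missed the threshold with median-of-ratios scaling. Of 17 mitochondrial aminoacyl-tRNA synthetases 2 rose and 2 fell (11.8% each, median 0.09), and of 22 genes for replication, transcription and processing of the mitochondrial genome 2 rose and 4 fell (9.09% and 18.2%, median -0.01), against 30.2% and 13.2% of all tested genes. In the last list SSBP1, which binds single-stranded mitochondrial DNA, fell by 0.40 on the log2 scale and HSD17B10, a subunit of mitochondrial ribonuclease P, by 0.45.

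Genes for cytosolic ribosomal proteins and for oxidative phosphorylation were counted in the same way. Of 86 tested genes for cytosolic ribosomal proteins 3 rose and 72 fell (3.49% and 83.7%, median log2 fold change -0.44). Of 79 tested nuclear genes for subunits of oxidative phosphorylation 7 rose and 45 fell (8.86% and 57.0%, median -0.32). Among all tested genes 30.2% rose and 13.2% fell, and among tested protein-coding genes under 1000 bases 12.4% and 45.9%. The median transcript lengths of the cytosolic ribosomal and oxidative phosphorylation genes were 827 and 763 bases. They were 1242 bases for the 78 mitochondrial ribosomal protein genes and 3276 bases for all tested protein-coding genes. The part of length or level in these counts was not tested. The 15 genes for proteins and ribosomal RNAs of the mitochondrial genome are listed at 0 in every library, so the RNA partners and the messages of this ribosome give no level here.

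**Figure D5:**
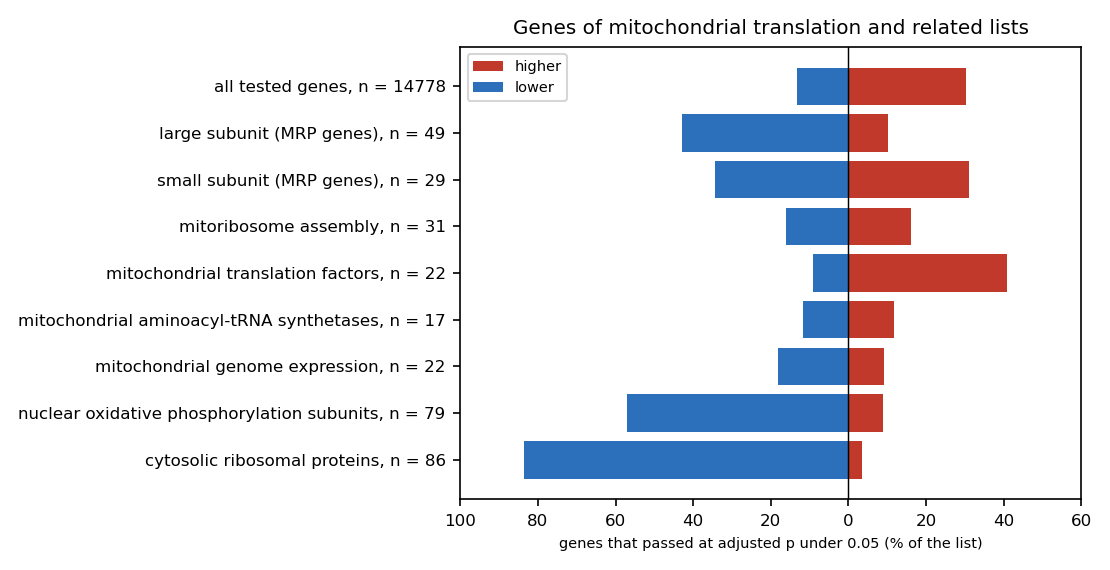
Share of each list that passed at an adjusted p under 0.05, lower to the left in blue and higher to the right in red, with the number of tested genes beside its name. The 49 MRPL genes have 42.9% lower and 10.2% higher and the 29 MRPS genes 34.5% and 31.0%, between the cytosolic ribosomal proteins, which are mostly lower, and the translation factors, of which more rose than fell.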

How the data were processed

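The authors trimmed reads with fastp 0.20.1, aligned them to hg38 with HISAT2 2.1.0 and deposited StringTie 2.0 TPM per Ensembl gene for 3 siCTR and 3 siCEP20 libraries (versions from the submitters' processing notes). The annotation release behind the table is not given in the sources used here, and TPM keeps neither counts nor depth, so precision rests on the replicates.

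Genes were named with GENCODE release 44. In the 14778 genes that averaged 1 TPM or more, groups were compared on log2(TPM + 1) with limma 3.58.1 (R 4.3.3, eBayes with trend, Benjamini-Hochberg adjustment), without rescaling and without a replicate term. On simulated data of that size, 144 of 200 changed genes and 7 of 14578 unchanged genes passed. The planted changes had fixed sizes, larger than the changes of most of the 78 genes. They covered a far smaller share of genes than the 43.3% that passed in the real data. These rates therefore do not carry over to the calls reported here. Genes named are CEP20, the 6 with the smallest adjusted p in each direction, the 3 highest and the 3 lowest in level, the largest differences that did not pass, the structural lists, subunits with other symbols, the 2 with the smallest adjusted p per direction in related lists, TUFM, TFAM and NRF1. A few more (the genes called with the fold thresholds, MRPS24, neighbours, other regulators, further genes that passed) were chosen after their values were seen. The 78 genes and all lists were chosen with earlier results of these data known, so no list was tested as a set. Lengths, GC content and overlaps came from the same annotation. Read counts were not analysed here. Python 3.11.15, pandas 2.3.3 and scipy 1.17.1 were used.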

Additional observations from a re-analysis of the deposited data

How the results depend on the processing

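The 14 genes higher and 31 lower were recounted under 15 alternative settings. In all of them 5 of the 14 and 24 of the 31 passed, and none passed in the opposite direction. Scaling by the median of ratios gave 6 higher and 38 lower, where 20.1% and 21.6% of all tested genes were. With the fold thresholds it gave 20 called lower and 0 called higher. Its medians were -0.32 for the large and -0.0949 for the small subunit. With quantile normalization the medians were -0.22 and -0.017, and with the length and GC correction that of the small subunit was -0.0004. A fold change of at least 2 left 0 genes called higher and 1 lower. Among genes without an overlapping expressed gene, a choice made after seeing the data, 7 were higher and 15 lower in the main fit. Of all tested genes, 30.2% and 13.2% were. Among the genes without an overlap 0 and 5 were called with the fold thresholds, and the medians were -0.12 and 0.10. Leaving out each library in turn gave 12 to 16 genes higher and 24 to 30 lower. Of all tested genes, 22.6% to 29.3% were higher and 10.1% to 11.8% lower in these runs. They gave 1 called higher, 10 to 11 called lower, and medians from -0.20 to -0.15 (large) and from 0.0395 to 0.11 (small, highest without siCTR replicate 2). The share of all genes called with the fold thresholds is given for the main fit only (11.2% higher and 4.61% lower). The ratio of summed TPM was 2.02 in siCTR and 1.75 in siCEP20 by structure, and 1.98 and 1.62 without the 3 most abundant genes of each subunit. Replicate numbers did not pair the samples (correlations of deviations 0.157, -0.0614 and -0.0623 for same-numbered samples, and siCTR replicate 2 and siCEP20 replicate 3, at 0.170, were the closest pair). With the replicate number as a block, 15 genes were higher and 30 lower (28.9% and 12.6% of all tested genes were), and 1 and 10 were called. Of 1155 recomputed values of named genes, 1055 stayed on their side of the threshold (35 of them with the other sign, none passing under either setting), 75 no longer passed, 24 newly passed and 1 turned its sign and passed: TFAM, at 0.07 without passing, was at -0.16 after the length and GC correction. The cause of these shifts was not tested. Depth is unknown, so what it limits cannot be stated.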
